A study of Populus tremula x Populus alba with 12 samples.

Results

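In wild-type poplar leaves, 121 transcript rows each reached a mean of at least 1000 CPM (the count divided by the library total and multiplied by 1000000). They were chosen from 16866 rows by their mean over the 3 wild-type libraries, and 2 rows that the rule leaves out were not counted among them. Together these most abundant transcripts, called members here, held 38.8 ± 1.66% (SD, n = 3) of the wild-type counts. CPM counts reads and is not corrected for transcript length, so a rank by CPM orders transcripts by the reads they supplied, not by their number of molecules. The wild-type values chose the members. Their wild-type levels, and any ratio to wild-type, are therefore given as a description with no test.

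The leaves were fully expanded, came from the middle of the stem, and belonged to a hybrid of *Populus tremula* and *P. alba* labelled as clone INRA 717. All plants were clonal, started in vitro, and had spent 3 months in a greenhouse. The 4 genotype labels, with 3 libraries each, were knockout (a glycosyltransferase disrupted by CRISPR, according to the series title), intermediate phenotype (called intermediate here, with no further definition in the labels), empty-vector, and wild-type. The labels do not name the edited gene. Whether a group's libraries represent several lines or sister plants is also not in the labels, and the spread behind each p-value is that between libraries, which may be technical.

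In a green leaf a small set of nuclear genes supplies a large part of the messenger RNA. These genes chiefly encode light-harvesting and photosystem proteins, the small subunit of Rubisco and other enzymes of carbon fixation, photorespiratory enzymes, and some abundant stress and metal-binding proteins. Their messages are long known to respond to light, sugar and leaf age. This is background on leaves in general: the files list *P. trichocarpa* type IDs and do not pair them with names, so no member is given a name or a role here, and the leaf label was not checked against marker genes.

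Library totals ranged from 5380384 to 17305326 counts. Empty-vector library 2, the deepest, stood apart from empty-vector libraries 1 and 3. Its counts differed from theirs by a chi-square of 75.5 and 65.7 per degree of freedom, a measure that also grows with depth, where libraries 1 and 3 differed from each other by 9.03. Knockout library 3 differed from knockout libraries 1 and 2 by 28.3 and 38.6, which differed from each other by 10.8. Wild-type library 3 differed from wild-type libraries 1 and 2 by 26.3 and 23.7, which differed from each other by 8.48. The values between intermediate libraries were 16.4 to 31.6. The results that use empty-vector are therefore also given without library 2, and without libraries 1 and 3. The scaling factor of the trimmed mean of M values (TMM), which corrects for the make-up of a library, was 1.10 and 1.13 in empty-vector libraries 1 and 3 and between 0.917 and 1.02 in the other 10.

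The members took a smaller part of the counts in knockout leaves than in intermediate or wild-type leaves. Their share was 30.9%, 29.6% and 34.3% in the knockout libraries. It was 40.3%, 37.3% and 41.3% in intermediate, 32.9%, 39.2% and 31.2% in empty-vector, with 39.1%, 40.3% and 37.0% in wild-type. All 3 knockout libraries lay below all intermediate and all wild-type libraries, but they overlapped with empty-vector, where libraries 1 and 3 lay in the knockout range and library 2 in the wild-type range. In knockout, intermediate and empty-vector the deepest library had the highest share, and in wild-type the deepest had the lowest. The part of depth in the shares was not tested. Counting error was far smaller than these differences, since the 95% Wilson intervals reached at most 0.041 percentage points to either side. A share of this kind cannot tell fewer cells of one type from less RNA per cell.

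**Figure D1:**
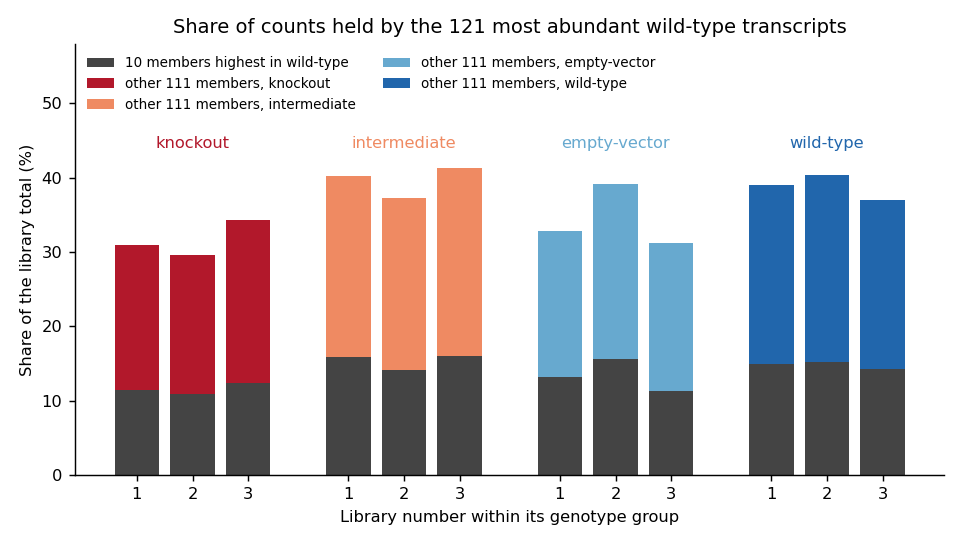
Share of each library's counts (%) held by the 121 members, 1 bar per library and 3 libraries per genotype label. The dark part is the 10 members highest in wild-type and the coloured part the other 111; the knockout bars end between 29.6% and 34.3% and the wild-type bars between 37.0% and 40.3%.

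Because the wild-type libraries chose the members, a wild-type share could be high through that choice alone. When the rows were chosen from 2 wild-type libraries and read in the third, the share was 38.7%, 39.6% and 36.3% in wild-type libraries 1, 2 and 3. The same 3 choices gave means between 31.4% and 31.6% in knockout, between 39.2% and 39.4% in intermediate and between 33.7% and 34.4% in empty-vector. The knockout means lay below each left-out wild-type library, which is of the same genotype as the 2 that chose the rows. The rows were still chosen in wild-type leaves, so this reading cannot speak for lists chosen in another genotype. On the 111 rows at 1000 CPM in knockout, the mean share was 35.1% in knockout and 34.9% in wild-type. On the 110 rows at 1000 CPM in empty-vector, it was 31.4% in knockout and 36.6% in wild-type.

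The lower share was spread over all levels of abundance. The 7 members at 10000 CPM or more in wild-type held 9.74 ± 0.666% of the counts in knockout, 12.7 ± 0.808% in intermediate, 11.2 ± 1.95% in empty-vector and 12.3 ± 0.371% in wild-type (SD, n = 3 each). The 67 members between 1000 and 2000 CPM held 7.67 ± 0.728% in knockout, 9.11 ± 0.145% in intermediate, 8.00 ± 0.847% in empty-vector and 9.35 ± 0.548% in wild-type (SD, n = 3 each). The summed share of the next level, the 122 rows with a wild-type mean of 500 to under 1000 CPM, did not follow this pattern. That level held 9.003 ± 0.172% in knockout, 8.16 ± 0.217% in intermediate, 8.01 ± 0.221% in empty-vector and 8.15 ± 0.131% in wild-type (SD, n = 3 each), and its 3 knockout libraries lay above the other 9. Its limit of 1000 CPM was set in wild-type only, so rows far higher in knockout could stay in it. The part of this limit was not tested. By row, its median log2 ratio in knockout was −0.18 to wild-type (mean CPM, no test), −0.20 to intermediate and 0.02 to empty-vector.

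The evenness of the leaf counts did not strictly follow the share of the members from library to library. The number of rows needed to reach 50% of a library's counts was 361, 357 and 329 in the knockout libraries. Intermediate needed 255, 329 and 238 rows, empty-vector 432, 283 and 471, and wild-type 289, 270 and 340. Empty-vector libraries 1 and 3 were the most even of the 12. Rows that were no members but reached 1000 CPM held 6.46%, 8.21% and 4.42% of the counts in knockout, against at most 2.09% in any library of the other 3 groups. By the rule these rows had a wild-type mean under 1000 CPM, which keeps their wild-type share low.

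By group means the first 3 members kept their order in all 4 groups, but members further down did not. Potri.011G079500.1 ranked first in wild-type and was the single most abundant row in 8 of the 12 libraries. It read 27398, 23931 and 29000 CPM in knockout leaves, 30693, 26692 and 33229 in intermediate, 24725, 32310 and 20139 in empty-vector, with 27650, 29032 and 27223 in wild-type. Potri.005G239300.1, the second, was the most abundant row in the other 4 libraries. It read 23291, 22750 and 22384 CPM in knockout leaves, 31503, 24971 and 28846 in intermediate, 25090, 27960 and 20173 in empty-vector, with 26807, 26243 and 27684 in wild-type. For both rows knockout overlapped with empty-vector, and for the second all knockout libraries lay below intermediate and wild-type. These 2 rows alone took between 4.03% and 6.22% of every library.

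The third, Potri.014G172400.1, was the steadiest of all 121 members. It read 17867, 18342 and 17292 CPM in knockout leaves, 19490, 18037 and 19791 in intermediate, 19354, 19187 and 16566 in empty-vector, with 15648, 16488 and 17744 in wild-type. Its highest value was 1.26 times its lowest. The knockout libraries overlapped with each other group, while all intermediate libraries lay above all wild-type libraries. Knockout stood at 1.04 times empty-vector, within a 95% interval from 0.765 to 1.42 (edgeR adjusted p = 0.87).

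Of the other 7 members in the wild-type top 10, Potri.018G025900.1 read 6325, 5425 and 11167 CPM in knockout leaves, 11738, 18116 and 14367 in intermediate, 12943, 13303 and 13306 in empty-vector, with 12206, 16016 and 15184 in wild-type. All knockout libraries lay below the other 9. Potri.004G218400.1 read 6327, 5685 and 9860 CPM in knockout leaves, 12449, 10022 and 11651 in intermediate, 9138, 11480 and 8885 in empty-vector, with 13998, 10954 and 10282 in wild-type. Its knockout libraries lay below intermediate and wild-type but not below empty-vector, since knockout library 3 was above 2 empty-vector libraries.

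Potri.002G221400.1 averaged 11727 ± 942 CPM in knockout, 11809 ± 2794 in intermediate, 10403 ± 4868 in empty-vector and 12686 ± 2634 in wild-type (SD, n = 3 each). Potri.006G099500.1 averaged 7166 ± 328 CPM in knockout, 8159 ± 1424 in intermediate, 6005 ± 2181 in empty-vector and 8109 ± 828 in wild-type (SD, n = 3 each). Potri.008G151600.1 averaged 6871 ± 293 CPM in knockout, 8770 ± 723 in intermediate, 6659 ± 596 in empty-vector and 7753 ± 746 in wild-type (SD, n = 3 each). None of these 3 was called in a tested contrast by edgeR (adjusted p between 0.16 and 0.89). Potri.005G246100.1 and Potri.004G086600.1, also in the top 10, are described with the knockout contrasts.

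Over all members, the heatmap of every library against the wild-type mean shows how far each group departed from wild-type. In the mean of the 3 knockout libraries, 72 of the 121 members were within 1.5-fold of wild-type, 22 were more than 2-fold lower and 3 more than 2-fold higher. Over all 14279 tested rows, 58.2% were within 1.5-fold, 10.4% more than 2-fold lower and 12.3% more than 2-fold higher. In intermediate, 118 members were within 1.5-fold, 2 were more than 2-fold lower and 0 more than 2-fold higher, against 89.2%, 0.952% and 1.62% of all tested rows. In empty-vector, 95 members were within 1.5-fold, 7 were more than 2-fold lower and 1 was more than 2-fold higher, against 76.2%, 2.02% and 4.29% of all tested rows.

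By library, the median member stood at a log2 ratio to the wild-type mean of −0.41, −0.45 and −0.24 in knockout. It stood at 0.03, −0.09 and 0.05 in intermediate and at −0.46, 0.01 and −0.40 in empty-vector. The intermediate libraries were thus centred near wild-type, as was empty-vector library 2, while empty-vector libraries 1 and 3 were as low at the median as the knockout libraries.

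**Figure D2:**
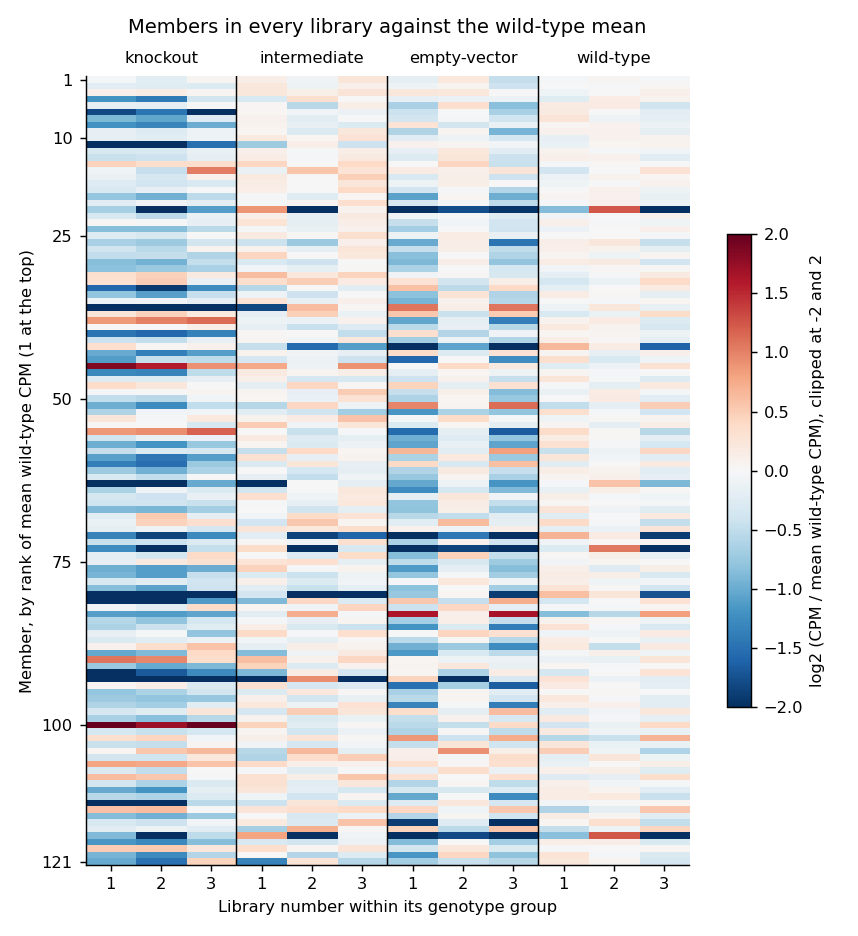
Each of the 121 members (rows, by rank of mean wild-type CPM) in the 12 libraries (columns), coloured by log2 of its CPM over the wild-type mean and clipped at −2 and 2. Blue is lower and red higher; knockout libraries and empty-vector libraries 1 and 3 are mostly pale blue, with single members far lower or higher in knockout.

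The list itself changed with the genotype. Of the 121 members, 83 also reached a mean of 1000 CPM in knockout, which is 68.6% of the members and 74.8% of the 111 rows at that level in knockout. In intermediate 112 did, which is 92.6% of the members and 93.3% of its 120 rows. In empty-vector 98 did, which is 81.0% of the members and 89.1% of its 110 rows. Rows just above the limit in the libraries that chose them can lie below it in others through the choice alone, and the part of this in the counts was not tested. In all 4 groups 76 members reached the level by their means, and 54 did so in each of the 12 libraries.

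Stability was measured for each member as its highest CPM over its lowest CPM across the 12 libraries. The median ratio was 2.33. It was under 2 for 45 members (37.2%) and at least 5 for 20 members (16.5%), of which 12 reached 10. The 122 rows of the next level had a median of 2.17, with 38.5% under 2 and 13.9% at 5 or more. The count of steady members depended on the scaling. With TMM-scaled CPM 26 members (21.5%) were under 2 and the median was 2.57, while the next level had 38.5% under 2 and a median of 2.19. The lowest ratios after Potri.014G172400.1 were 1.45 for Potri.001G438700.1, which averaged 5838 ± 407 CPM in knockout, 7295 ± 403 in intermediate, 6758 ± 1132 in empty-vector and 6960 ± 298 in wild-type (SD, n = 3 each). Next was Potri.011G140800.1 with a ratio of 1.52. It read 1202, 1293 and 1131 CPM in knockout leaves, 1605, 1229 and 1416 in intermediate, 1463, 1721 and 1426 in empty-vector, with 1631, 1406 and 1444 in wild-type.

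The largest ratios were 575 for Potri.018G126000.1 and 482 for Potri.019G024600.1, both described with the knockout contrasts, and 145 for Potri.006G065500.1. Potri.006G065500.1 read 33.0, 17.8 and 872 CPM in knockout leaves, 308, 1742 and 1522 in intermediate, 860, 1617 and 766 in empty-vector, with 1716, 2583 and 933 in wild-type. Knockout library 3 lay among the intermediate and empty-vector libraries, far above knockout libraries 1 and 2, and the member was called in no tested contrast.

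Within a group, the median member varied 1.33-fold in knockout, 1.36-fold in intermediate, 1.65-fold in empty-vector and 1.29-fold in wild-type between its lowest and highest library. More than 2-fold variation within the group was seen for 16 members in knockout, 16 in intermediate, 30 in empty-vector and 11 in wild-type. Empty-vector library 2 held the highest empty-vector value of 90 members, and knockout library 3 the highest knockout value of 79.

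**Figure D3:**
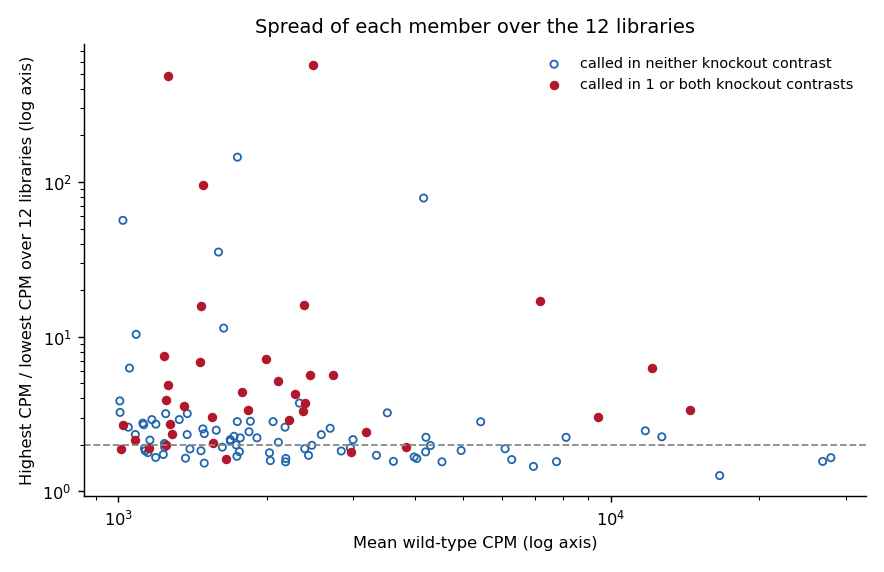
Highest over lowest CPM across the 12 libraries (log axis) against mean wild-type CPM (log axis), 1 point per member, with a dashed line at a ratio of 2. Filled points were called in knockout against empty-vector, against intermediate or both; the median ratio is 2.33 and the highest 575.

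Some members varied widely within wild-type. Of the 121, 96 reached 1000 CPM in each wild-type library and 25 were under it in at least 1. Potri.013G139800.1 and the neighbouring IDs Potri.011G074100.1 and Potri.011G074200.1 are named here after their values were seen. Potri.013G139800.1 read 2277, 9906 and 315 CPM in wild-type libraries 1, 2 and 3. In knockout it read 2638, 126 and 1947 CPM, in intermediate 7648, 812 and 4355, and in empty-vector 147, 1223 and 1082, so that every group overlapped every other.

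Potri.011G074200.1 read 671, 94.0 and 1143 CPM in knockout leaves, 2064, 319 and 1282 in intermediate, 104, 445 and 350 in empty-vector, with 1324, 3313 and 151 in wild-type. Potri.011G074100.1 read 553, 42.7 and 717 CPM in knockout leaves, 1759, 200 and 973 in intermediate, 45.0, 294 and 237 in empty-vector, with 569, 2415 and 78.7 in wild-type. In all 3 rows the libraries with the highest and the lowest value of a group were mostly the same, and the spread within wild-type was 31.5-fold, 30.7-fold and 21.9-fold for Potri.013G139800.1, Potri.011G074100.1 and Potri.011G074200.1. Members with consecutive running numbers in their IDs formed 3 pairs, namely this one, Potri.001G438600.1 with Potri.001G438700.1, and Potri.004G086500.1 with Potri.004G086600.1. Such pairs may share reads if their sequences are alike, which the files do not tell.

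At the edge of the list, the 3 members just inside were Potri.004G092500.1, Potri.018G083900.1 and Potri.016G135400.1, with wild-type means of 1012, 1008 and 1006 CPM. The 3 rows just outside were Potri.018G075900.1, Potri.005G172400.1 and Potri.014G095100.1, with 998, 971 and 961 CPM. Potri.005G172400.1 read 4053, 3018 and 2735 CPM in knockout and 832 to 1361 CPM elsewhere, so that all 3 knockout libraries stood above the other 9. Potri.018G083900.1 read 532, 416 and 674 CPM in knockout and 451 to 1346 CPM elsewhere, and Potri.016G135400.1 ranged from 358 to 1374 CPM with both extremes in knockout.

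The tests were limited to contrasts that do not include wild-type. They were fitted to all rows with edgeR's quasi-likelihood test and TMM scaling, and a row was called when its p, adjusted by Benjamini-Hochberg over the 14279 tested rows, was under 0.05. All 121 members passed the filter on low counts. The 2 knockout contrasts share the knockout libraries, so their values are given side by side and not as support for each other.

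Against empty-vector, 27 of the 121 members were called in knockout, 11 higher and 16 lower. This is 22.3% of the members where 24.9% of all tested rows were called, so their share is near that of all rows. By direction, 9.09% of the members were higher and 13.2% lower, against 13.5% and 11.4% of all tested rows. The median log2 fold change of the members was −0.00, as over all tested rows (−0.01), with 61 below 0 and 60 above. The level beneath had 14 higher and 13 lower of 122. In 28 members all 3 knockout libraries lay below all empty-vector libraries and in 14 above, where 22.5% and 15.5% of all tested rows did so.

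The balance differed with the empty-vector libraries used. Without library 2 the median of the members was 0.25 and 41 were called, 25 higher and 16 lower, where 13.3% and 12.9% of the rows tested in that fit were called. Without libraries 1 and 3, which leaves 1 empty-vector library whose spread is taken to be like that of the other groups, the median was −0.45 and 15 were called, 2 higher and 13 lower, where 6.56% and 4.26% of the rows tested in that fit were called. Of the 16 lower calls with all libraries, 15 were kept without library 2 and 7 without libraries 1 and 3. Of the 11 higher calls, 11 and 2 were kept.

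The largest falls against empty-vector were those of Potri.019G024600.1 and Potri.018G126000.1. Potri.019G024600.1 read 4.98, 6.32 and 36.1 CPM in knockout, against 1718, 220 and 1010 CPM in empty-vector. It read 32.7, 2399 and 117 CPM in intermediate and 1538, 1166 and 1071 CPM in wild-type. Knockout lay below empty-vector in all libraries but overlapped with intermediate, where library 2 stood far above libraries 1 and 3. It was 54.6-fold lower in knockout than in empty-vector (95% interval 6.13 to 486, log2 fold change −5.77 ± 1.45 SE, edgeR adjusted p = 0.012), and its value was −7.32 without knockout library 3, −5.09 without empty-vector library 1 and −3.80 without empty-vector libraries 1 and 3. This call was lost without knockout library 1 or 2 (edgeR adjusted p = 0.051 and 0.053) and without empty-vector libraries 1 and 3 (edgeR adjusted p = 0.13).

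Potri.018G126000.1 read 22.5, 9.11 and 373 CPM in knockout, against 5214, 2684 and 5232 CPM in empty-vector. It read 708, 3823 and 2529 CPM in intermediate and 2314, 2896 and 2252 CPM in wild-type. Every knockout library lay below the other 9, and knockout library 3 was the highest of its group. It was 29.4-fold lower in knockout than in empty-vector (95% interval 5.26 to 164, log2 fold change −4.88 ± 1.14 SE, edgeR adjusted p = 0.0081), or −8.02 on the log2 scale without knockout library 3. Without empty-vector libraries 1 and 3 the edgeR adjusted p was 0.061.

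Among the top 10, Potri.005G246100.1 read 3462, 4408 and 2183 CPM in knockout, against 8989, 12254 and 7715 CPM in empty-vector. It read 12430, 11704 and 11175 CPM in intermediate and 13724, 12151 and 10520 CPM in wild-type, so that knockout lay below the other 9 libraries with a wide gap. It fell 2.71-fold against empty-vector (95% interval 1.73 to 4.25, log2 fold change −1.44 ± 0.30 SE, edgeR adjusted p = 0.0041). Potri.004G086600.1 read 4063, 3787 and 4756 CPM in knockout, against 11385, 7278 and 8615 CPM in empty-vector. It read 9841, 8530 and 7790 CPM in intermediate and 9636, 9960 and 8647 CPM in wild-type. It fell 2.0-fold against empty-vector (95% interval 1.44 to 2.77, edgeR adjusted p = 0.0053), a call lost without empty-vector libraries 1 and 3 (edgeR adjusted p = 0.070). Its neighbour by ID, Potri.004G086500.1, read 873, 806 and 934 CPM in knockout, against 3016, 1599 and 2275 CPM in empty-vector, and fell 2.43-fold (edgeR adjusted p = 0.0012, 95% interval 1.75 to 3.37).

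The largest rises were those of Potri.010G236500.1 and Potri.004G140800.1. Potri.010G236500.1 read 5755, 4039 and 6381 CPM in knockout, against 852, 890 and 1606 CPM in empty-vector. It read 1688, 1067 and 1260 CPM in intermediate and 952, 1128 and 1633 CPM in wild-type, and all knockout libraries stood above the other 9. It was 5.25-fold higher in knockout than in empty-vector (95% interval 3.30 to 8.35, log2 fold change 2.39 ± 0.31 SE, edgeR adjusted p = 2.0e-04).

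Potri.004G140800.1 read 3012, 2426 and 2531 CPM in knockout, against 233, 1148 and 334 CPM in empty-vector. Its 1734, 818 and 1106 CPM in intermediate lay below knockout, but its 3729, 2639 and 778 CPM in wild-type lay on both sides. It was 4.80-fold higher in knockout than in empty-vector (95% interval 1.78 to 12.9, log2 fold change 2.26 ± 0.66 SE, edgeR adjusted p = 0.025). The log2 value was 3.39 without empty-vector library 2 and 1.15 without libraries 1 and 3. The call was lost without knockout library 1 or empty-vector library 1 or 3 (edgeR adjusted p between 0.062 and 0.093) and without empty-vector libraries 1 and 3 together (edgeR adjusted p = 0.34). Potri.004G092500.1, at the edge of the list, was called 1.55-fold higher (95% interval 1.13 to 2.13, edgeR adjusted p = 0.047), at 1434, 1458 and 1184 CPM in knockout and 782, 1182 and 830 CPM in empty-vector. That call was lost in 10 of its 16 alternatives. On the log2 scale it measured 0.63 with all libraries and 0.14 when empty-vector was represented by library 2 alone.

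**Figure D4:**
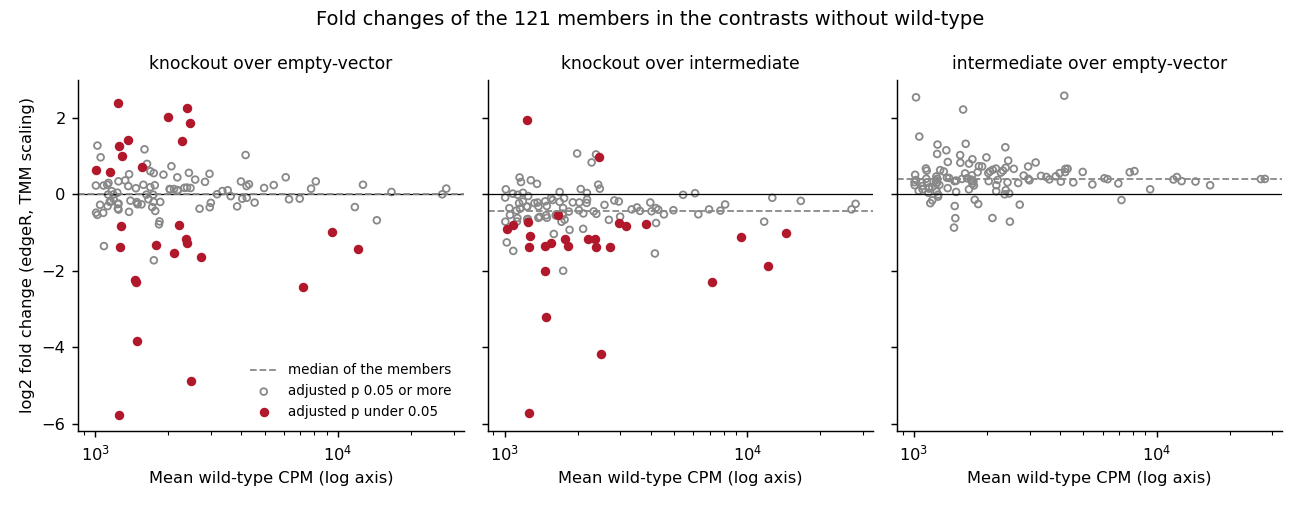
Log2 fold change (edgeR, TMM scaling) against mean wild-type CPM (log axis) for the 121 members in the 3 contrasts without wild-type, with calls filled and the median of the members dashed. Knockout over empty-vector has its median at −0.00 and 27 calls, knockout over intermediate at −0.44 and 27 calls, and intermediate over empty-vector at 0.39 and 0 calls.

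Against intermediate, the members lay lower in knockout as a group. Their median log2 fold change was −0.44, where that of all tested rows was −0.01 and that of the level beneath −0.20, and 103 members were below 0 and 18 above. Of the 121 members 27 were called, 2 higher and 25 lower. That is 22.3% of the members where 17.4% of all tested rows were called. By direction it is 1.65% higher and 20.7% lower, against 9.94% and 7.41% of all tested rows, and against 6 higher and 16 lower of the 122 rows of the level beneath. In 51 members the knockout libraries all lay below intermediate and in 7 above, where 13.2% and 22.0% of all tested rows did so. The members were chosen as high in wild-type, and intermediate lay near wild-type, so lower knockout values can follow from the choice. The part of the choice was not tested. On the 111 rows at 1000 CPM in knockout, the mean share was 35.1% in knockout and 36.7% in intermediate. On the 110 rows at 1000 CPM in empty-vector, it was 31.4% in knockout and 37.9% in intermediate.

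Fewer members were called without knockout library 1 or 2 or intermediate library 3, and so were fewer of all rows. Leaving out knockout library 3 did not lower the count, with 28 called, 2 higher and 26 lower. With intermediate library 1 or 2 left out, 18 and 20 were called. No share of all tested rows is given for the fits without knockout library 3 or intermediate library 1 or 2. Their counts can therefore not be set against it. Without knockout library 1, 13 were called, 1 higher and 12 lower, where 7.23% and 4.06% of the rows tested in that fit were called. Without knockout library 2, 15 were called, 1 higher and 14 lower, where 6.93% and 4.03% were called. Without intermediate library 3, 17 were called, 1 higher and 16 lower, where 7.51% and 5.34% were called.

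The largest falls were again Potri.019G024600.1 and Potri.018G126000.1, at −5.70 ± 1.45 and −4.16 ± 1.10 on the log2 scale (SE, edgeR adjusted p = 0.018 and 0.022). For Potri.019G024600.1 the value was −2.33 without intermediate library 2 and −7.25 without knockout library 3. Its call was lost without intermediate library 2, without knockout library 1 or 2, in a fit of the 2 groups alone, and in limma-voom (adjusted p between 0.051 and 0.11). For Potri.018G126000.1 the value was −7.30 without knockout library 3, and the call was lost without knockout library 1, without intermediate library 2 and in a fit of the 2 groups alone (edgeR adjusted p between 0.060 and 0.071).

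The rises were Potri.010G236500.1, 3.81-fold above intermediate (edgeR adjusted p = 0.0012, 95% interval 2.41 to 6.02), and Potri.001G191000.1. Potri.001G191000.1 read 4415, 4899 and 5334 CPM in knockout, against 2269, 2224 and 2599 CPM in intermediate. It read 1195, 2152 and 943 CPM in empty-vector, with 2563, 2749 and 2030 CPM in wild-type, and all knockout libraries stood above the other 9. It stood 1.96-fold above intermediate (edgeR adjusted p = 0.048, 95% interval 1.23 to 3.12), a call that no fit with 1 of the 6 libraries left out kept (edgeR adjusted p between 0.085 and 0.14). Against empty-vector it was 3.59-fold higher (95% interval 2.24 to 5.78, edgeR adjusted p = 0.0013), or 1.12 on the log2 scale without empty-vector libraries 1 and 3.

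In the top 10, Potri.005G246100.1 fell 3.70-fold against intermediate (edgeR adjusted p = 0.0013, 95% interval 2.35 to 5.83). Potri.004G086600.1 fell 2.18-fold (edgeR adjusted p = 0.0039, 95% interval 1.58 to 3.03). Potri.018G025900.1 fell 2.02-fold (edgeR adjusted p = 0.029, 95% interval 1.31 to 3.10), and this call was lost without knockout library 1 or 2 or intermediate library 2 or 3 (edgeR adjusted p between 0.071 and 0.12), in a fit of the 2 groups alone, and without the wild-type libraries.

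**Figure D5:**
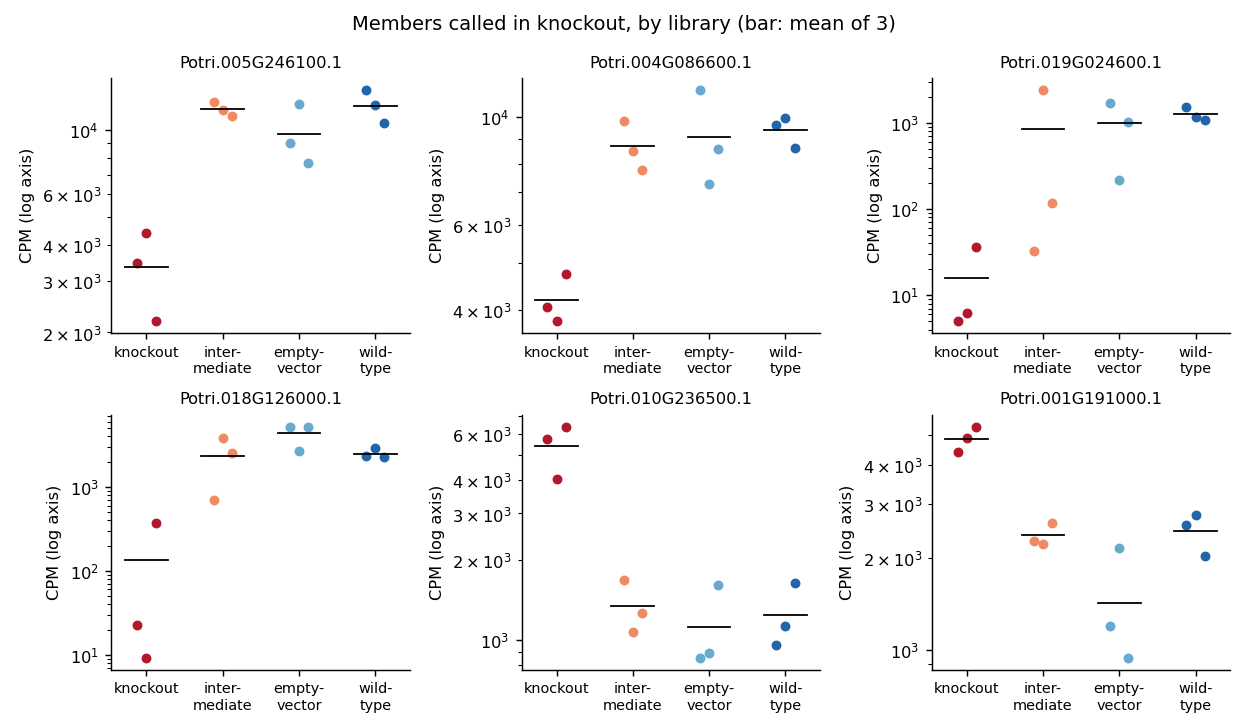
CPM (log axis) by library for 6 members called in knockout, with points for the 3 libraries of each group and a bar at their mean. Potri.005G246100.1 and Potri.004G086600.1 are about 2 to 4 times lower in knockout than in the other groups. Potri.018G126000.1 lies lowest in knockout with wide spread. Potri.019G024600.1 has its lowest mean in knockout, also with wide spread, but its knockout libraries overlap with intermediate. In Potri.010G236500.1 and Potri.001G191000.1 the knockout libraries stand above all other libraries.

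The members called lower in knockout held a sizeable part of the counts. The 16 called lower against empty-vector took 1.71 ± 0.238% of the counts in knockout and 5.63 ± 0.798% in empty-vector (SD, n = 3 each). The 11 called higher took 3.35 ± 0.152% in knockout and 1.26 ± 0.238% in empty-vector (SD, n = 3 each), and the 94 others 26.5 ± 2.22% and 27.5 ± 4.69%. The 25 called lower against intermediate took 3.47 ± 0.552% in knockout and 8.01 ± 0.698% in intermediate (SD, n = 3 each). The 94 members not called in that contrast took 27.1 ± 1.72% in knockout and 31.2 ± 2.72% in intermediate (SD, n = 3 each). The lower knockout share against intermediate was thus made up about equally of members that passed the test, by −4.55 percentage points, and of members that did not, by −4.12, while the 2 called higher added 0.657. These sets were chosen by the calls on the same libraries, so the shares are a description.

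Between intermediate and empty-vector edgeR called 0 members, with 0.126% of all tested rows called, 0.0840% higher and 0.0420% lower. At an unadjusted p under 0.05 there were 31 members, all higher in intermediate, where 6.46% of all tested rows were higher and 5.28% lower at that level. DESeq2 called 8, all higher, where it called 1.27% of all tested rows higher and 0.406% lower. Limma-voom called 0, with 0.0560% of all tested rows higher and 0.0420% lower. In 15 members all intermediate libraries lay above empty-vector and in 0 below, where 3.81% and 14.5% of all tested rows did so. The median log2 fold change of the members was 0.39, against −0.02 over all tested rows and 0.22 in the level beneath, with 107 members above 0 and 14 below.

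This contrast too depended on the empty-vector libraries. Without empty-vector library 2 the median was 0.71 and edgeR called 27 members, all higher in intermediate, where 1.81% of the rows tested in that fit were called higher and 0.833% lower. Without empty-vector libraries 1 and 3 the median was 0.05. Potri.008G151600.1, in the wild-type top 10, read 8880, 7998 and 9431 CPM in intermediate and 6662, 7253 and 6062 CPM in empty-vector, without overlap, and was not called at 1.49-fold (edgeR adjusted p = 0.30, 95% interval 1.10 to 2.005).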

How the data were processed

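The authors deposited raw read counts, 1 file per library, over 16866 transcript rows. Tools listed in the submitters' processing notes were Cufflinks, DESeq2, HISAT2, HTSeq and SAMtools, with neither versions nor roles. Build, annotation and strand setting are unstated in the labels.

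CPM used the library total of all rows. Members were the rows with a mean wild-type CPM of at least 1000. Members and lists were chosen with earlier results of these data known. Counts were filtered with filterByExpr (minimum count 10, minimum total 15, proportion 0.7), scaled by TMM and fitted with 4 group means over 12 libraries (8 residual degrees of freedom, no covariate) in edgeR 4.0.16 under R 4.3.3. SEs and intervals were derived from each F statistic with its fold change. Fold changes use TMM-scaled values and printed CPM do not. The fit was tested on simulated data in which no library was made to stand apart within its group. That simulation does not cover a group such as empty-vector. Alternatives used DESeq2 1.42.0 and limma 3.58.1. Named members were the 10 most abundant, the 2 higher and 2 lower of largest fold change per contrast, the 3 smallest and 3 largest spreads, and 3 rows on each side of the threshold. Term lists needed an annotation and were not used.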

Additional observations from a re-analysis of the deposited data

How the results depend on the processing

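With 1 library left out, calls ranged from 21 to 41 for knockout against empty-vector, from 13 to 28 for knockout against intermediate and from 0 to 27 for intermediate against empty-vector. The share of all tested rows called also moved between such fits. Mean shares ranged from 30.3% to 32.6% in knockout, from 38.8% to 40.8% in intermediate, from 32.0% to 36.0% in empty-vector and from 37.9% to 39.7% in wild-type. A member limit of 500 CPM (243 rows) gave 54, 49 and 0 calls in the 3 contrasts in that order, and mean shares of 40.6% in knockout, 47.8% in intermediate, 42.4% in empty-vector and 47.0% in wild-type. A limit of 2000 CPM (54 rows) gave 12, 13 and 0 calls and shares of 23.9%, 30.5%, 26.4% and 29.45% in that order of groups. These counts and shares differ because more or fewer rows were counted. In knockout against empty-vector 22.2% of the rows were called at either limit, where 24.9% of all tested rows were called. In knockout against intermediate 20.2% were called at 500 CPM and 24.1% at 2000 CPM, where 17.4% of all tested rows were called. Rows at 1000 CPM in each wild-type library (96) held 28.75%, 36.5% and 35.35% in knockout, intermediate and wild-type. Lists chosen in other groups were added after seeing the data. The 111 rows at 1000 CPM in knockout held 35.1% of knockout, 36.7% of intermediate, 31.4% of empty-vector and 34.9% of wild-type counts, so on that list knockout was not below wild-type and lay above empty-vector, as can follow from choosing the rows in knockout. The 110 rows at 1000 CPM in empty-vector held 31.4% of knockout, 37.9% of intermediate, 34.1% of empty-vector and 36.6% of wild-type counts. Also added later, the fit without empty-vector libraries 1 and 3 gave 15 calls for knockout against empty-vector. DESeq2 called 8 members in intermediate against empty-vector; the cause was not tested. With TMM-scaled CPM, 26 members in place of 45 had a ratio of highest to lowest CPM under 2. With library totals alone the median of all tested rows was −0.12 for knockout against empty-vector and −0.20 for intermediate against empty-vector on the log2 scale; relative to it the members stood at 0.03 and 0.42. Of 233 values of named members under alternatives, 191 kept their call, 42 kept their direction only and 0 reversed. Of the 15 named fold changes behind these values, 6 kept their call under every alternative. Library numbers were given in accession order. No paired analysis was possible because the labels give no replicate numbers that groups share. Without an annotation the named members could not be tied to functions, and the counting error of a share was small beside the spread between libraries.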

Other observations

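Knockout leaves had 28 rows with a mean of at least 1000 CPM that were not among the 121 members, intermediate had 8 and empty-vector 12. Each group's own list at that level held 35.1 ± 0.479% of the counts in knockout, 39.7 ± 2.23% in intermediate, 34.1 ± 3.58% in empty-vector and 38.8 ± 1.66% in wild-type (SD, n = 3 each). In knockout this SD was smaller than that of the share of the 121 wild-type members, which was 31.6 ± 2.40% (SD, n = 3). The share of the 121 members was 39.6 ± 2.07% in intermediate and 34.4 ± 4.24% in empty-vector (SD, n = 3 each), with SDs nearer to those of their own lists. Each list was chosen on the group it is read in, so these values are a description.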
